A study of Mus musculus with 8 samples.

Results

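The syndecans and glypicans are the core proteins that hold heparan sulfate chains on the cell surface, and their RNA was followed here in sorted mouse kidney cells with and without endomucin (Emcn). All 10 mouse core genes named in the list (Sdc1 to Sdc4 and Gpc1 to Gpc6) were found by symbol among the 17326 gene lines that held all 8 counts, and all 10 passed the filter on low counts, as 10 of 16477 genes tested. They were chosen by family and not by any measured value. The study sorted endothelium and podocytes, which the series names as glomerular, from kidneys of mice of genotype EMCN+/+ (wild type) and EMCN-/- (homozygous for loss of Emcn, here called knockout). This gave 4 groups of 2 libraries of polyadenylated RNA, numbered replicate 2 and 3 in each group. The strain, age and sex of the mice, how the Emcn allele was made, the markers used for sorting and whether a library came from 1 animal or a pool are not given in the sources used here. The p-values therefore measure the spread between these libraries, which may be partly technical.

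Heparan sulfate is a long, sulfated sugar chain that binds growth factors, chemokines, lipases and matrix proteins, and it makes up much of the glycocalyx on the blood side of the endothelium. Syndecans cross the membrane once and carry their chains on an outer domain that proteases can release, with a short tail inside the cell that binds the cytoskeleton and adaptor proteins. Glypicans are tied to the membrane by a lipid anchor, carry their chains close to the surface and act mainly in the reception of growth factors and morphogens. In the glomerulus, the endothelium, the basement membrane and the podocytes each bear heparan sulfate, in part on these proteins and in part on matrix proteoglycans such as agrin and perlecan.

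The genes lie on 8 chromosomes in the mouse build GRCm38 (GENCODE M21), which is the build that the submitters' processing notes name as mm10. The syndecans are at chr12:8771323-8793715 (Sdc1), chr15:32920723-33034935 (Sdc2), chr4:130792537-130826319 (Sdc3) and chr2:164424247-164443887 (Sdc4). The glypicans are at chr1:92831645-92860779 (Gpc1), chr5:138273655-138280005 (Gpc2), chrX:52272426-52613950 (Gpc3), chrX:52053021-52165252 (Gpc4), chr14:115092215-116525179 (Gpc5) and chr14:116925315-117976544 (Gpc6). Gpc4 and Gpc3 are neighbours on the same strand, 107 kb apart, and Gpc5 and Gpc6 are neighbours on the same strand, 400.1 kb apart, with 0 protein-coding genes between the genes of either pair. Gpc1 overlaps the protein-coding gene Ankmy1 on the opposite strand, Gpc2 overlaps Gm43720 on its own strand, and Sdc3, Gpc3 and Gpc5 overlap non-coding genes on the opposite strand. The use of strand in counting is not given in the sources used here, so the counts of those 5 genes are uncertain where the overlap was transcribed. MicroRNA genes lie within Gpc1 (Mir149), Gpc3 (Mir6384 and Mir717) and, on the opposite strand, Gpc6 (Mir6239), and Sdc1, Sdc2, Sdc4 and Gpc4 overlap 0 other genes.

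Promoter sequences in RefSeq (GRCm38.p6, from 250 bases before to 50 bases after the gene start that RefSeq gives) matched 7 of the 10 genes, and Sdc2, Gpc1 and Gpc6 had no entry. The RefSeq start is not always the outermost start in GENCODE, from which the spans above were taken. It lies 699 bases inside the GENCODE span for Sdc4, 73 bases inside it for Sdc1 and 329 bases inside it for Gpc4, and 24 bases before it for Gpc3. The 4 printed here belong to genes whose RNA was higher in podocytes, as described further on, and are printed 5′ to 3′ on the gene's strand. Capitals mark GC boxes (GGGCGG on either strand), which bind SP and KLF factors, and the core of a TATA box (TATAA on either strand). The windows are chr2:164443139-164443438 on the minus strand for Sdc4, chr12:8771146-8771445 on the plus strand for Sdc1, chrX:52613925-52614224 on the minus strand for Gpc3 and chrX:52164874-52165173 on the minus strand for Gpc4.
Sdc4: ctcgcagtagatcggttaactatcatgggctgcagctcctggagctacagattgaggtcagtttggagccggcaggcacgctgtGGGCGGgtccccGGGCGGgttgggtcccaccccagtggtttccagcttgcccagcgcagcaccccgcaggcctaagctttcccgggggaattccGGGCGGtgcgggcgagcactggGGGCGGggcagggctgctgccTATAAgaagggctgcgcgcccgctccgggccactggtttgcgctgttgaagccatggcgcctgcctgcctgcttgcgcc
Sdc1: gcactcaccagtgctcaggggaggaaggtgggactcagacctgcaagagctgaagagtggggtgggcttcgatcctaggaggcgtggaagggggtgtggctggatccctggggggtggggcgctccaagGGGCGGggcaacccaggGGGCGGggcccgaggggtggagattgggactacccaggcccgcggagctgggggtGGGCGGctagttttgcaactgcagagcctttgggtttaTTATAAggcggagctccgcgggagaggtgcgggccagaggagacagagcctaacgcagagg
Gpc3: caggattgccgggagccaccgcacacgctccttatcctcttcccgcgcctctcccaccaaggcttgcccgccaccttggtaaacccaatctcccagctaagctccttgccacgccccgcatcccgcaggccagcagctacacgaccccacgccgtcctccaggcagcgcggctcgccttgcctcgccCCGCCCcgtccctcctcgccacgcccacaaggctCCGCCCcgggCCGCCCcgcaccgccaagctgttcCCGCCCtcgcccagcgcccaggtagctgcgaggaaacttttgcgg
Gpc4: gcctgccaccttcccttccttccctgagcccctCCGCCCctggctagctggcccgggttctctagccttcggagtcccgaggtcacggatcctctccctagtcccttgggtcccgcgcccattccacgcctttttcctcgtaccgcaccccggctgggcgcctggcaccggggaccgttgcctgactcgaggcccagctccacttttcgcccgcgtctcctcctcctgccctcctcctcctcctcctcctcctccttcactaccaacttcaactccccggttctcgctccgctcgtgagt
A GC box was present in 7 of the 7 matched promoters and in 35.7% of the 32851 promoters of that length in the table. The windows of Sdc4 and Gpc3 held 4 GC boxes each, those of Sdc1, Sdc3 and Gpc2 held 3 each, and those of Gpc4 and Gpc5 held 1 each. TATAA was present in 3 of the 7, against 24.9% of all promoters. It began 29 bases before the RefSeq gene start in Sdc4, 11 bases before it in Sdc1 (where the palindrome matched on both strands, as 2 overlapping matches) and 184 bases before it in Gpc5. The letters GCGTGGGNG, a site of the WT1 and EGR factors, were in 0 of the 7 windows and in 1.90% of all promoters, which says only that these letters are not in these windows. CCAAT was present in 3 of the 7, in Sdc1, Gpc2 and Gpc3, against 37.4% of all. These matches describe sequence and were not tested against the RNA values.

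The libraries held between 10478956 and 17386042 counts on the complete gene lines. Emcn, the check of the genotype labels, stood at 1972 and 1828 CPM (read counts scaled to a common library size) in wild-type endothelium and at 173 and 179 CPM in knockout endothelium, and was also lower in both knockout podocyte libraries (5.59 and 4.94 CPM) than in the wild-type ones (74.1 and 35.9 CPM). The 9 endothelial markers summed to between 8170.5 and 10395 CPM in the 4 endothelial libraries and to between 437 and 695 CPM in the 4 podocyte libraries. Of 8 podocyte markers, the 4 on complete lines summed to between 1041 and 1945 CPM in endothelium and to between 7053 and 15333 CPM in podocytes, and 0 markers of either list were at 0 in any library. RNA of the distal nephron was present in every library, where 4 of 6 markers (Umod, Aqp2, Calb1 and Cdh16) summed to between 2743 and 15431 CPM. Replicate 3 of wild-type endothelium stood apart from the other 7 libraries on the second principal component, which carried 18.6% of the variance. Because these are bulk samples, a lower level can mean fewer cells of a type or less RNA per cell, and the counts cannot tell these apart.

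Sdc4 had the highest level of the family in each of the 4 groups. Levels between genes were compared per kilobase of transcript, using the median length of the gene's protein-coding transcripts in GENCODE M21. In wild-type podocytes Sdc4 stood at 909 ± 193 CPM per kilobase (SD, n = 2), Sdc2 at 156 ± 33.8 and Gpc3 at 120 ± 23.4. The libraries of Sdc2 and Gpc3 overlapped, so their order was within the spread, while Sdc4 lay above both. Gpc1 followed at 65.4 ± 19.3 CPM per kilobase, then Gpc4 at 37.0 ± 0.063 and Sdc3 at 33.1 ± 24.1, which overlapped each other. Sdc1 at 6.31 ± 0.039, Gpc6 at 4.66 ± 1.29, Gpc5 at 1.33 ± 0.33 and Gpc2 at 0.39 ± 0.13 CPM per kilobase made up the low end, without overlap between neighbours.

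The order in wild-type endothelium differed in the middle of the list. Sdc4 again led at 232 ± 24.2 CPM per kilobase (SD, n = 2), followed by Gpc3 at 67.4 ± 14.6 and Sdc3 at 56.8 ± 23.8, which overlapped. Sdc2 at 28.3 ± 7.42 and Gpc4 at 22.2 ± 6.24 CPM per kilobase overlapped as well. Gpc1 stood at 7.28 ± 2.23 CPM per kilobase in wild-type endothelium. Below it, without overlap, lay Sdc1 at 4.12 ± 0.24, and then Gpc6 at 2.56 ± 0.91 and Gpc5 at 1.87 ± 0.49, which overlapped each other. Gpc2 was lowest in each of the 4 groups, with 8 to 37 counts per library. The place of Sdc3 depended on its length, because the median of its 3 coding transcripts was 659 bases and its longest transcript was 4973 bases. With the longest transcript of each gene, Sdc3 stood at 7.53 CPM per kilobase in wild-type endothelium, in place 5, and at 4.39 in wild-type podocytes, in place 7.

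In the knockout groups Sdc4 also led, at 637 ± 83.8 CPM per kilobase (SD, n = 2) in podocytes and 149 ± 68.1 in endothelium, and lay above the next gene without overlap in both. In knockout podocytes Gpc3 at 104 ± 51.8 and Sdc2 at 103 ± 24.7 CPM per kilobase overlapped, and Gpc4, Gpc1 and Sdc3, at 45.3 ± 26.7, 41.7 ± 8.68 and 39.6 ± 42.2, overlapped as well. In knockout endothelium Sdc3 stood at 62.7 ± 19.1 and Gpc3 at 39.97 ± 5.69 CPM per kilobase, without overlap, but with the longest transcripts the order turned round, at 8.31 for Sdc3 and 36.9 for Gpc3. Sdc2 at 20.5 ± 5.67 and Gpc4 at 15.7 ± 4.36 overlapped, and Gpc6, Gpc1 and Sdc1 lay between 3.98 and 4.70 CPM per kilobase.

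Syndecans made up most of the summed level of the family. Their share of the per-kilobase sum was between 74.4% and 80.7% in the 4 endothelial libraries and between 75.4% and 84.2% in the 4 podocyte libraries, ranges that overlapped. The sum itself was between 267 and 435 CPM per kilobase in endothelium and between 950 and 1539 in podocytes, without overlap. Sdc4 alone accounted for 37.8% to 60.7% of the sum in endothelial libraries and 56.0% to 73.3% in podocyte libraries.

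**Figure D1:**
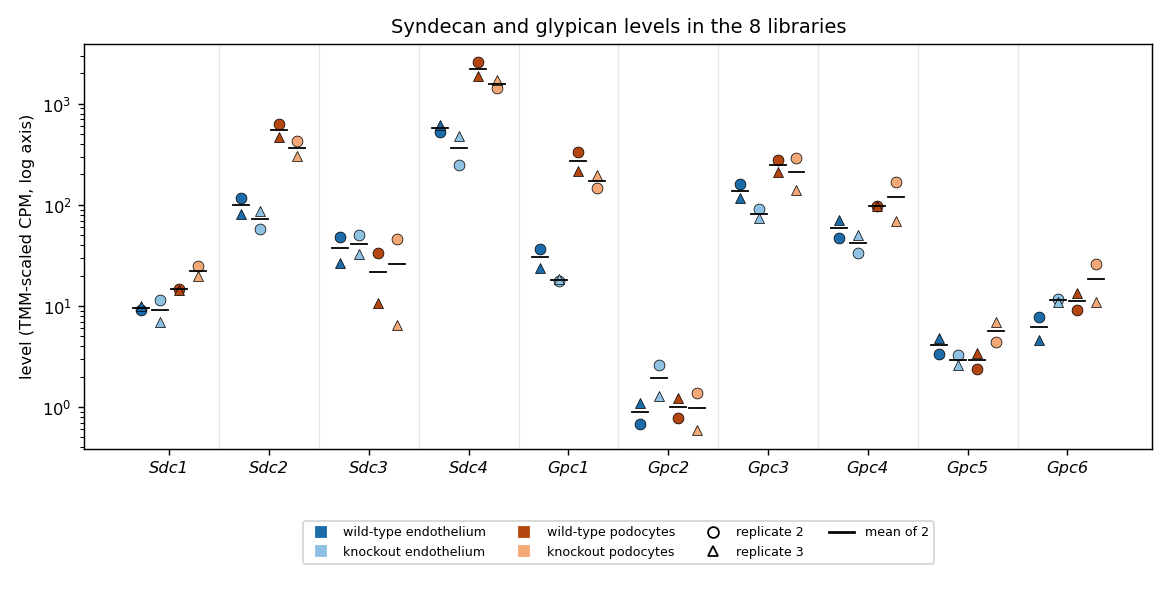
Level of each syndecan and glypican gene in each of the 8 libraries, in TMM-scaled CPM on a log axis. Points are libraries (circle, replicate 2; triangle, replicate 3), colours are the 4 groups and bars are means of 2. Sdc4, Sdc2 and Gpc1 separate podocytes from endothelium most widely, and Sdc3 differs widely between the 2 replicates of a podocyte group.

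Across cell types, 6 of the 10 core genes were higher in podocytes and 0 were higher in endothelium at an edgeR adjusted p under 0.05, in the comparison averaged over genotype. The 6 were Gpc1, Sdc2, Sdc4, Gpc3, Gpc4 and Sdc1. Over all 16477 genes, 18.3% passed in either direction, 11.1% as higher in podocytes and 7.19% as higher in endothelium. The median log2 fold change (endothelium over podocytes) was −1.02 over the 10 genes and 0.0017 over all genes. The 3 parietal epithelium markers were also higher in the podocyte libraries, summing to between 329.5 and 840.4 CPM there and to between 39.2 and 92.1 CPM in endothelium, with 2 of the 3 called. The 6 mesangial and mural markers on complete lines (of 9) summed to between 465 and 1212 CPM in podocyte libraries and to between 299.8 and 652 CPM in endothelial ones, ranges that overlapped, with 3 of the 6 called as higher in podocytes. The 3 immune markers on complete lines (of 6) summed to between 78.4 and 117 CPM in podocyte libraries and to between 23.2 and 49.9 CPM in endothelial ones, with Csf1r called as higher in podocytes and Lyz2 as higher in endothelium. The 3 proximal tubule markers on complete lines (of 6) summed to between 298 and 1313 CPM in podocyte libraries and to between 186 and 590 CPM in endothelial ones. Those ranges overlapped, with 1 of the 3 called as higher in podocytes. None of these markers was at 0 in any group, and the part of these cell types in the values of the core genes was not tested. Of the remaining 4, Gpc6 and Gpc5 had negative and Sdc3 and Gpc2 positive values, none past the threshold. Within wild type 3 of the 10 passed (Gpc1, Sdc2 and Sdc4), each higher in podocytes, against 8.99% of all genes in either direction and 4.73% in that one. Within knockout the same 6 genes passed as in the averaged comparison, against 10.4% of all genes in either direction and 6.09% as higher in podocytes. The knockout calls of Sdc1, Gpc3 and Gpc4 were lost when replicate 2 or 3 of knockout endothelium, replicate 2 of knockout podocytes or replicate 2 of wild-type podocytes was left out (edgeR adjusted p from 0.0507 to 0.276), and those of Sdc1 and Gpc4 also without replicate 3 of wild-type podocytes (edgeR adjusted p 0.0558 and 0.0559).

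Sdc4 encodes the widely expressed syndecan that joins integrins in focal adhesions. It stood at 2569 and 1899 CPM in wild-type podocytes (replicates 2 and 3) and at 1420.0 and 1711 CPM in knockout podocytes. In endothelium the values were 528 and 612 CPM in wild type and 248 and 484 CPM in knockout. Each of the 4 podocyte libraries lay above each of the 4 endothelial ones. Sdc4 was 4.09-fold higher in podocytes, with a log2 fold change (endothelium over podocytes) of −2.03 (SE 0.25, edgeR adjusted p 0.000198). The difference was similar in size within wild type (−1.97, edgeR adjusted p 0.00451) and within knockout (−2.10, edgeR adjusted p 0.00338). Without replicate 2 of wild-type podocytes, the wild-type value was −1.72 (edgeR adjusted p 0.0506).

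Sdc2, known from mesenchymal and endothelial cells, where it takes part in adhesion and vessel growth, stood at 634 and 466 CPM in wild-type and 425 and 301 CPM in knockout podocytes. The endothelial libraries held 118 and 81.3 CPM in wild type and 58.2 and 86.5 CPM in knockout. The cell types did not overlap, and the level was 5.26-fold higher in podocytes (log2 fold change −2.39, SE 0.23, edgeR adjusted p 3.4e-05). Sdc1, the syndecan best known from epithelia and plasma cells, was present at a far lower level. It stood at 14.6 and 14.5 CPM in wild-type and 24.7 and 19.6 CPM in knockout podocytes, against 9.12 and 9.92 CPM in wild-type and 11.4 and 6.97 CPM in knockout endothelium. Again the 4 podocyte libraries lay above the 4 endothelial ones, by 1.92-fold (log2 fold change −0.94, SE 0.24, edgeR adjusted p 0.0181). Sdc1 did not pass within wild type (−0.62, edgeR adjusted p 0.365). Its averaged call was lost when any 1 of 4 libraries was left out, namely replicate 3 of knockout endothelium, replicate 2 of knockout podocytes, replicate 2 of wild-type endothelium or replicate 2 of wild-type podocytes (edgeR adjusted p 0.0782, 0.0609, 0.0571 and 0.0563).

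Sdc3 is the syndecan with a long outer domain that is best known from the nervous system. Relative to its level, it varied most of the family between replicates in both podocyte groups and wild-type endothelium. It varied less than Gpc2, Sdc4 and Sdc1 in knockout endothelium. Its levels were 48.6 and 26.3 CPM in wild-type endothelium, 50.2 and 32.4 CPM in knockout endothelium, 33.1 and 10.6 CPM in wild-type podocytes and 45.7 and 6.42 CPM in knockout podocytes. The library numbered 2 was the higher of the pair in each of the 4 groups, and the cell types overlapped. The log2 fold change (endothelium over podocytes) was 0.72, with a 95% interval from −0.45 to 1.89 (edgeR adjusted p 0.413). Without replicate 2 of knockout podocytes it was 1.73 (edgeR adjusted p 0.0193), and over the 8 fits with 1 library left out it ranged from 0.31 to 1.73 (edgeR adjusted p up to 0.695), with 1 of the 8 called. Within each genotype and replicate number, the endothelial library was the higher. The share of counts from mitochondrial genes differed by replicate number as well, at 10.1% to 13.3% in the 4 libraries numbered 2 and 16.9% to 26.2% in those numbered 3, in the opposite order to Sdc3. The summed distal nephron markers were likewise lower in number 2 than in number 3 of each group, at 2743 to 7085 CPM against 6770.1 to 15431 CPM. The part of either in the Sdc3 values was not tested.

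Among the glypicans, Gpc1 differed most between the cell types. It encodes a co-receptor for fibroblast growth factors and VEGF-A. Its levels were 330.1 and 216 CPM in wild-type podocytes and 148 and 199.8 CPM in knockout podocytes, against 37.0 and 23.8 CPM in wild-type and 17.5 and 18.5 CPM in knockout endothelium. The lowest podocyte library stood well above the highest endothelial one. Gpc1 was 9.32-fold higher in podocytes (log2 fold change −3.22, SE 0.22, edgeR adjusted p 5.1e-06). It ranked 96 of 16477 genes when all were ordered from the most podocyte-sided log2 fold change, with Sdc2 at rank 269 and Sdc4 at rank 427. The calls of Gpc1 and Sdc2 held in each of the 3 cell type comparisons under each alternative run, with each library left out in turn.

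Gpc3, whose loss in humans causes an overgrowth syndrome and which restrains hedgehog signalling, stood at 279 and 212 CPM in wild-type podocytes and at 289 and 139 CPM in knockout podocytes. In endothelium it stood at 159 and 117 CPM in wild type and at 90.1 and 73.6 CPM in knockout. Replicate 3 of knockout podocytes lay below replicate 2 of wild-type endothelium, so the cell types overlapped. The fitted level was 2.16-fold higher in podocytes (log2 fold change −1.11, SE 0.24, edgeR adjusted p 0.0084). Its X-linked neighbour Gpc4, from another branch of the family, gave 98.1 and 98.3 CPM in wild-type and 170.0 and 69.9 CPM in knockout podocytes, against 47.1 and 70.5 CPM in wild-type and 33.6 and 49.9 CPM in knockout endothelium. Here too 1 pair of libraries crossed, and the level was 2.19-fold higher in podocytes (log2 fold change −1.13, SE 0.27, edgeR adjusted p 0.0152). Neither passed within wild type, where the edgeR adjusted p was 0.199 for Gpc3 and 0.343 for Gpc4. Without replicate 2 of wild-type podocytes the averaged edgeR adjusted p was 0.0505 for Gpc3 and 0.0564 for Gpc4. Gpc4 also missed the threshold without replicate 2 of knockout endothelium (edgeR adjusted p 0.0536) or replicate 2 of wild-type endothelium (edgeR adjusted p 0.0585). Scaling by library size only, which moved the median of all genes by 0.17, gave an edgeR adjusted p of 0.0898 for Sdc1 and 0.0511 for Gpc3.

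The other 3 glypicans were low and did not pass. Gpc6, the closest relative of Gpc4, ranged from 4.63 to 11.8 CPM in endothelium and from 9.07 to 26.1 CPM in podocytes (log2 fold change −0.79, SE 0.32, edgeR adjusted p 0.128). Without replicate 3 of knockout podocytes its value was −1.03 (edgeR adjusted p 0.0303), and without replicate 2 of that group it was −0.41 (edgeR adjusted p 0.483). Gpc5, which has the longest gene of the family at 1433 kb, ranged from 2.58 to 4.85 CPM in endothelium and from 2.40 to 7.01 CPM in podocytes (log2 fold change −0.23, 95% interval −1.02 to 0.55, edgeR adjusted p 0.722). Gpc2, the cerebroglycan of developing neurons, ranged from 0.68 to 2.61 CPM in endothelium and from 0.59 to 1.37 CPM in podocytes (log2 fold change 0.40, 95% interval −0.82 to 1.63, edgeR adjusted p 0.690). Libraries of the cell types did not overlap for 4 of the 10 genes (Gpc1, Sdc2, Sdc4 and Sdc1), all higher in podocytes, against 12.3% of all genes.

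**Figure D2:**
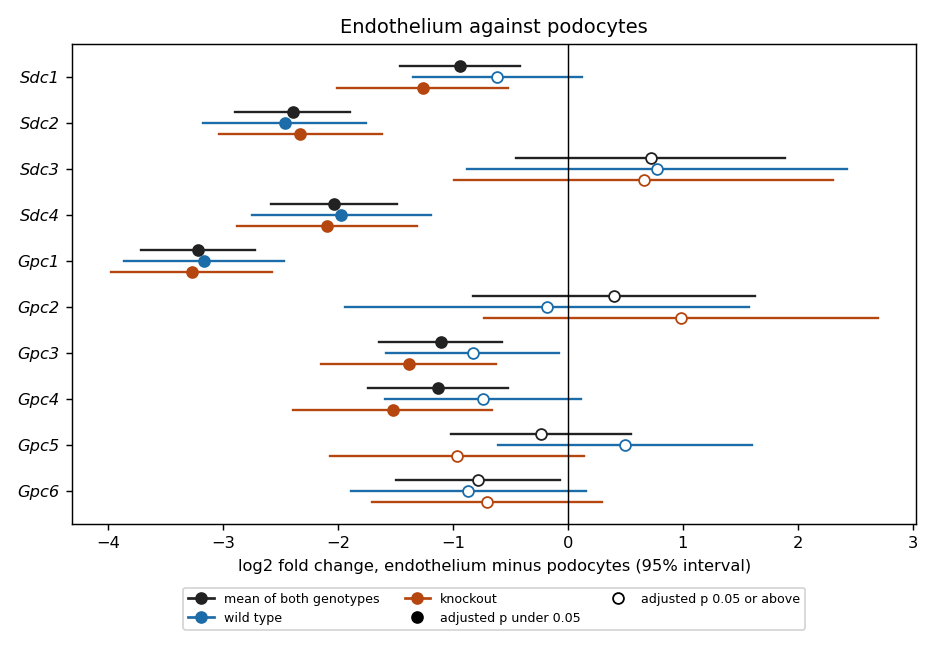
Log2 fold change of endothelium over podocytes for each gene, with the 95% interval of the edgeR fit, averaged over genotype (black), in wild type (blue) and in knockout (orange). Filled points passed an adjusted p of 0.05. Gpc1, Sdc2 and Sdc4 lie at −3.22, −2.39 and −2.03 in the averaged comparison and pass in all 3.

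How much of the podocyte level was seen in the endothelial libraries varied over the family. The mean endothelial level of Gpc1 was 11.1% of its mean podocyte level in wild type and 10.3% in knockout. For Sdc2 these shares were 18.1% and 19.9%, and for Sdc4 they were 25.5% and 23.4%. Among the podocyte markers, the same shares were 7.03% and 7.50% for Synpo, 8.26% and 8.94% for Wt1, 9.59% and 7.33% for Cdkn1c, and 16.7% and 26.0% for Podxl, which endothelium also expresses. The Gpc1 share thus lay a little above those of Synpo, Wt1 and Cdkn1c and below those of Podxl, and the shares of Sdc2 and Sdc4 lay further above those of Synpo, Wt1 and Cdkn1c. For Gpc3 the shares were 56.2% and 38.3%, and for Gpc4 59.9% and 34.8%. The part of podocyte RNA in the endothelial values was not tested.

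**Figure D3:**
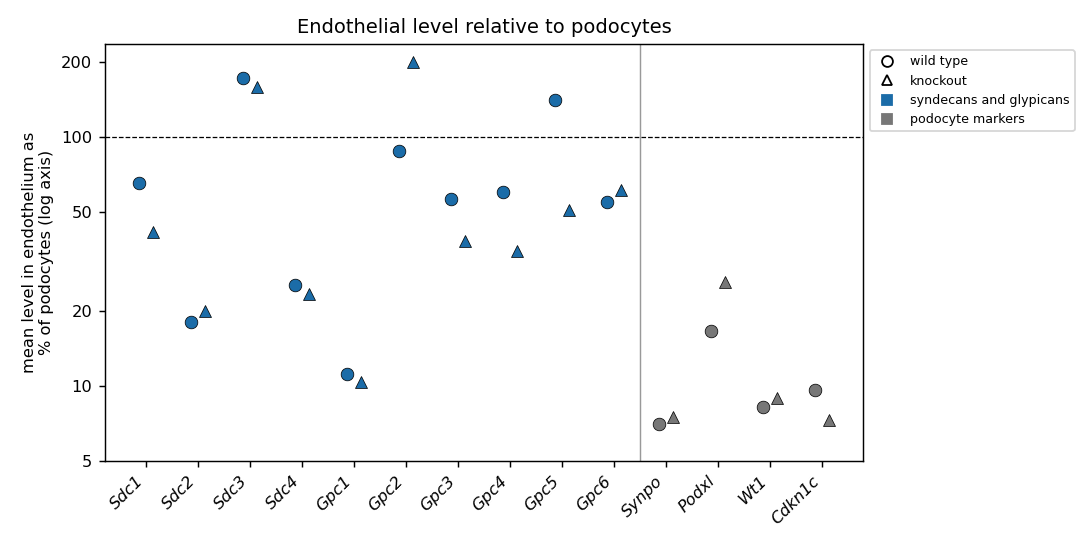
Mean level in endothelium as a percentage of the mean level in podocytes (log axis) for the 10 genes and, in grey, the 4 podocyte markers on complete lines. Circles are wild type and triangles knockout, each from means of 2 libraries; the dashed line marks equal levels. Gpc1 lies at 11.1% and 10.3%, near the markers, and Sdc3 lies above 100% in both genotypes, with a difference that did not pass the test.

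Other genes of the heparan sulfate pathway were read from 3 lists. Of 10 other proteins that can carry heparan sulfate, 5 were on complete lines and tested. Of these, 3 were higher in endothelium, 1 was higher in podocytes and Cd44 did not pass, against 7.19% and 11.1% of all genes. Agrn, the main heparan sulfate proteoglycan of the glomerular basement membrane, was on the podocyte side with 6 of the surface core genes, at 249.9 ± 58.8 CPM (SD, n = 2) in wild-type podocytes and 75.6 ± 12.8 CPM in wild-type endothelium (averaged log2 fold change −1.68, SE 0.19, edgeR adjusted p 0.000126). Srgn, a proteoglycan of secretory granules, Nrp1, a VEGF co-receptor that can carry a chain, and Hspg2 (perlecan) lay on the endothelial side, with log2 fold changes of 4.38, 2.04 and 1.59 (edgeR adjusted p 8.2e-06, 5.6e-05 and 0.000162). Of 27 genes for assembling and modifying the chains, 21 were tested, and 11 were higher in podocytes and 0 in endothelium, where 11.1% and 7.19% of all genes were. Their median log2 fold change was −0.79, against 0.0017 over all genes. The largest were 2 sulfotransferases that add the rare 3-O-sulfate, Hs3st3a1 (−3.07, SE 0.24, edgeR adjusted p 9.9e-06) and Hs3st6 (−2.99, SE 0.27, edgeR adjusted p 2.4e-05), followed by Hs6st2 (−1.67, edgeR adjusted p 0.0258) and Extl3 (−1.32, edgeR adjusted p 0.00018).

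The third list held 15 partners, proteases and enzymes that release core proteins or edit their chains, all of them tested. In the averaged comparison 3 were higher in endothelium, 1 was higher in podocytes and 11 did not pass, so that 4 of 15 were called where 18.3% of all genes were. The 1 on the podocyte side was Sulf1, which removes 6-O-sulfate outside the cell, at 405 ± 79.9 CPM (SD, n = 2) in wild-type podocytes and 49.6 ± 31.1 CPM in wild-type endothelium (log2 fold change −2.46, SE 0.29, edgeR adjusted p 0.000157). On the endothelial side were Gpihbp1, the capillary receptor of lipoprotein lipase (5.54, edgeR adjusted p 4.6e-06), Sdcbp2, a relative of the syndecan adaptor syntenin (2.10, edgeR adjusted p 0.018), and the sheddase Adam10 (0.83, edgeR adjusted p 0.0214). Sdcbp, syntenin itself, was at 962 ± 18.3 CPM in wild-type endothelium and 738 ± 69.2 CPM in wild-type podocytes (0.42, edgeR adjusted p 0.15).

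The genes whose log2 CPM followed each of the 6 called core genes most closely over the 8 libraries were also taken out, as a description with no test. The points share 2 cell types, so any gene that separates podocytes from endothelium scores highly. Gpc1 was followed by Lrrc1, Hs3st3a1 and Foxl1, with Pearson r of 0.997, 0.996 and 0.996 over 8 libraries. Hs3st3a1 is thus in the list of chain-modifying enzymes and among the 3 genes most like Gpc1. Sdc2 was followed by Kank1, Sh2d4a and Mme (r of 0.995, 0.995 and 0.994), and Sdc4 by Aif1l, H2bc4 and Vdac1 (r of 0.997, 0.997 and 0.996). For Gpc3 the genes were Pskh1, Faf2 and Ptp4a1 (r of 0.993, 0.989 and 0.988), for Gpc4 Vps37d, Gstz1 and Lgmn (r of 0.986, 0.985 and 0.984), and for Sdc1 Upk3b, Hhipl2 and Fbxo46 (r of 0.982, 0.979 and 0.977). Among the core genes themselves, Sdc2, Sdc4 and Gpc1 moved most alike, with r of 0.965 between Sdc2 and Sdc4, 0.981 between Sdc2 and Gpc1 and 0.965 between Sdc4 and Gpc1. Gpc3 and Gpc4, the X-linked neighbours, had an r of 0.832, and Gpc5 and Gpc6, the neighbours on chromosome 14, had an r of 0.011.

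The comparison of knockout with wild type asked whether loss of Emcn went with a change in these core genes. In endothelium 0 of the 10 passed an edgeR adjusted p of 0.05, where 0.00607% of all genes passed (1 gene, Emcn), and 2 of the 10 had an unadjusted p under 0.05, against 5.49% of all genes. That count was 0 without replicate 2 of knockout endothelium or replicate 2 of wild-type endothelium, and 1 or 3 without some of the others, while the count over all genes (905) was 323 without replicate 3 and 2182 without replicate 2 of wild-type endothelium and 563 without replicate 2 of knockout endothelium. DESeq2 and limma voom also called 0 of the 10. The median log2 fold change (knockout over wild type) was −0.48 over the 10 genes and 0.0050 over all genes. In podocytes 0 of the 10 passed, against the same 0.00607% of all genes, and 1 of the 10 had an unadjusted p under 0.05, against 4.43%, a count that ranged from 0 to 3 with 1 library left out. The median there was 0.12 over the 10 genes and 0.023 over all genes. Scaling by library size only moved the median of all genes to 0.33 in endothelium and 0.13 in podocytes, so directions below are relative to TMM scaling. Emcn itself passed narrowly, at −3.43 in endothelium and −3.38 in podocytes (edgeR adjusted p 0.0205 and 0.0321). With library size only both calls were lost (−3.11 and −3.26, edgeR adjusted p 0.0835 and 0.0786). Limma voom also left Emcn uncalled in podocytes (limma adjusted p 0.85). Changes much smaller than that of Emcn could thus be missed, and the count of 0 does not show that these genes were unchanged.

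In endothelium, Gpc1 was at 37.0 and 23.8 CPM in wild type and 17.5 and 18.5 CPM in knockout, so that the groups did not overlap. The log2 fold change was −0.76, with a 95% interval from −1.42 to −0.097 (p 0.0285, edgeR adjusted p 0.716). With 1 library left out it ranged from −1.05 to −0.41, the latter without replicate 2 of wild-type endothelium. The 4 podocyte markers on complete lines also had negative values in endothelium, from −1.13 for Cdkn1c to −0.016 for Podxl with a median of −0.49, and 0 of the 4 passed in edgeR (adjusted p from 0.716 to 0.989). Their summed level was 1945 and 1041 CPM in wild-type and 1258 and 1204 CPM in knockout endothelium, groups that overlapped, and their part in the Gpc1 values was not tested. Gpc3 gave −0.75 (SE 0.34, p 0.0491, edgeR adjusted p 0.716), with 159 and 117 CPM against 90.1 and 73.6 CPM. Sdc4 stood at 528 and 612 CPM in wild type and 248 and 484 CPM in knockout endothelium, without overlap (−0.64, 95% interval −1.39 to 0.11, edgeR adjusted p 0.716). Its value was −0.24 without replicate 2 and −1.21 without replicate 3 of knockout endothelium. The distal nephron markers had the same order over these 4 libraries, with summed levels of 7085 and 15431 CPM in wild type and 2743 and 6770 CPM in knockout, and their part in the Sdc4 values was not tested. Gpc6 had the opposite sign, at 7.75 and 4.63 CPM in wild type and 11.8 and 10.9 CPM in knockout (0.88, 95% interval −0.14 to 1.90, edgeR adjusted p 0.716). The other values were −0.46 for Sdc2 (95% interval −1.14 to 0.21), −0.50 for Gpc4 (−1.35 to 0.36), −0.49 for Gpc5 (−1.60 to 0.62) and −0.047 for Sdc1 (−0.79 to 0.69), with 1.14 for Gpc2 (−0.60 to 2.87) and 0.14 for Sdc3 (SE 0.74). With 1 library left out, the endothelial values ranged from −0.79 to −0.18 for Sdc2, −0.82 to −0.18 for Gpc4, −0.74 to −0.20 for Gpc5, 0.53 to 1.54 for Gpc2, −0.97 to −0.52 for Gpc3 and 0.55 to 1.29 for Gpc6. The 3 proximal tubule markers on complete lines (of 6) summed to 186 and 279 CPM in wild-type and 590 and 376 CPM in knockout endothelium, higher in knockout like Gpc6 and Gpc2, and their part in those values was not tested. The 2 groups did not overlap for 4 genes that were lower in knockout (Sdc4, Gpc1, Gpc3 and Gpc5), against 19.7% of all genes, and for 2 that were higher (Gpc2 and Gpc6), against 24.8%.

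In podocytes, Gpc1 was at 330.1 and 216 CPM in wild type and 148 and 199.8 CPM in knockout, a log2 fold change of −0.65 with a 95% interval from −1.29 to −0.0088 (p 0.0474, edgeR adjusted p 0.978). With 1 library left out it ranged from −0.93 to −0.29, the latter without replicate 2 of wild-type podocytes. Sdc2 gave −0.60 (95% interval −1.27 to 0.073) and Sdc4 −0.51 (95% interval −1.26 to 0.24), both with an edgeR adjusted p of 0.978. Without that same library these were −0.33 and −0.26. These 3 genes were lower in each knockout library than in each wild-type library, against 16% of all genes lower without overlap in podocytes. The 4 podocyte markers on complete lines had negative values of like size in the same libraries, from −0.75 for Cdkn1c to −0.55 for Wt1, and 0 of the 4 passed (edgeR adjusted p 0.978 for each). Their summed level was 15333 and 9674 CPM in wild-type and 7053 and 8683 CPM in knockout podocytes. The part of podocyte content in the values of Gpc1, Sdc2 and Sdc4 was not tested. On the higher side without overlap were Sdc1 (0.60, 95% interval −0.12 to 1.33) and Gpc5 (0.97, 95% interval −0.13 to 2.08, or 0.60 to 1.27 with 1 library left out), 2 of the 10 against 15.1% of all genes. The proximal tubule markers were also higher in both knockout podocyte libraries, at 1313 and 515 CPM against 298 and 413 CPM, and their part in the Sdc1 and Gpc5 values was not tested. Gpc3 (−0.20, 95% interval −0.94 to 0.54), Gpc4 (0.29, −0.56 to 1.13), Gpc6 (0.72, −0.28 to 1.72), Sdc3 (0.26, −1.39 to 1.91) and Gpc2 (−0.027, −1.77 to 1.72) overlapped between the genotypes.

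Replicate 2 of knockout podocytes was high for several of these genes. It held 45.7 CPM of Sdc3, 289 of Gpc3, 170.0 of Gpc4 and 26.1 of Gpc6, where replicate 3 of the same group held 6.42, 139, 69.9 and 11.0 CPM. The same library had the highest summed level of the mesangial and mural markers (6 of 9 on complete lines), at 1212 CPM against 465 CPM in replicate 3. It was also the higher of the pair for the proximal tubule markers, and its 3 parietal epithelium markers to 840.4 CPM against 329.5 CPM. The part of these other cell types in the 4 genes' values was not tested. Without that library, the podocyte log2 fold change was −1.77 for Sdc3, −0.83 for Gpc3, −0.49 for Gpc4 and −0.042 for Gpc6, against 0.26, −0.20, 0.29 and 0.72 with it.

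**Figure D4:**
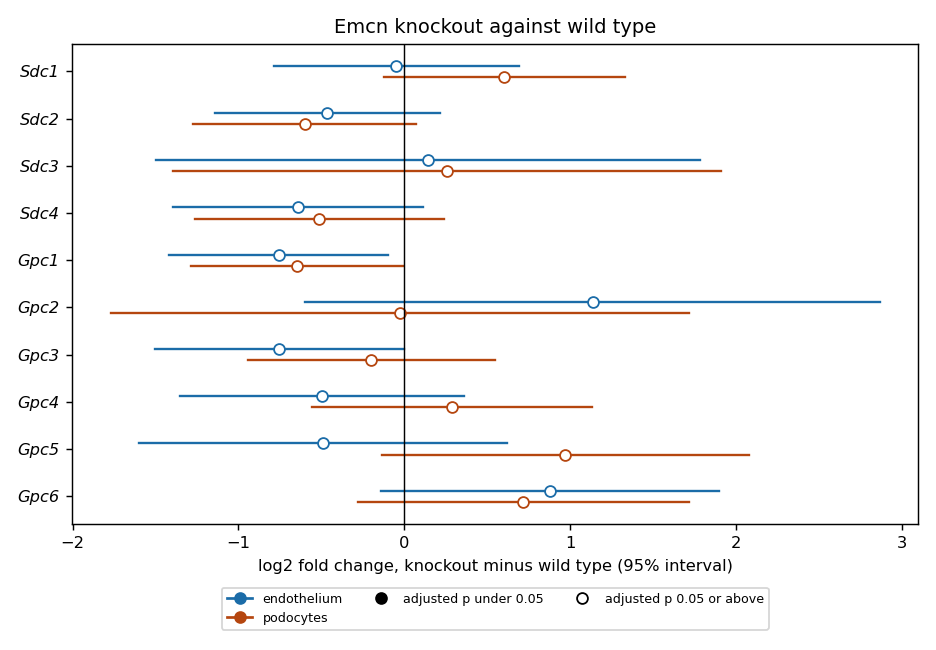
Log2 fold change of knockout over wild type for each gene in endothelium (blue) and podocytes (orange), with the 95% interval of the edgeR fit. Open points did not pass an adjusted p of 0.05, which is each of the 20 shown; Gpc1 lies at −0.76 and −0.65, the only gene whose interval leaves out 0 in both cell types.

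Averaged over the cell types, 0 of the 10 passed the edgeR adjusted threshold (0.00607% of all genes did), and 4 of the 10 had an unadjusted p under 0.05, against 8.59% of all genes. These were Gpc1 (−0.70, SE 0.21, p 0.00653), Sdc2 (−0.53, SE 0.22, p 0.0323), Sdc4 (−0.58, SE 0.24, p 0.0363) and Gpc6 (0.80, SE 0.32, p 0.0318), each with an edgeR adjusted p of 0.558. The count of 4 was 1 without replicate 2 of knockout endothelium or replicate 2 of wild-type podocytes, 2 without replicate 3 of wild-type endothelium and 1 with library size only, and the count over all genes (1415) ranged from 770 to 2161 with 1 library left out. Over the same fits the averaged values ranged from −0.86 to −0.38 for Sdc4 and from 0.41 to 1.04 for Gpc6. Gpc1 and Sdc4 were lower in knockout without overlap in both cell types, 2 of the 10 against 6.04% of all genes. Whether the genotype effect was unlike in endothelium and podocytes was tested as an interaction, in which 0 of the 10 and 0% of all genes passed in edgeR, and 0 of the 10 had an unadjusted p under 0.05 (2.6% of all genes), and 2 when replicate 2 or replicate 3 of knockout podocytes was left out. Gpc5 had the smallest p of the 10, with an effect in endothelium minus that in podocytes of −1.46 (95% interval −3.03 to 0.10, edgeR adjusted p at least 0.999).

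In the 3 pathway lists, 0 of 41 tested genes passed in either cell type between knockout and wild type in edgeR, where 0.00607% of all genes did. The 5 other proteoglycans had median log2 fold changes of 0.12 in endothelium and 0.035 in podocytes, the 21 chain enzymes −0.16 and −0.21, and the 15 partners and releasing enzymes −0.039 and 0.16. Hs3st3a1, which followed Gpc1 across the libraries, gave −0.47 (SE 0.33) in endothelium and −0.69 (SE 0.31) in podocytes, with edgeR adjusted p-values of 0.726 and 0.978. Because its likeness to Gpc1 was found in these same libraries, these values are not independent of those of Gpc1.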

How the data were processed

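Polyadenylated RNA of 8 FACS-sorted mouse kidney libraries was sequenced after a TruSeq preparation, per the labels' protocols. Raw counts of reads per gene (Entrez identifiers) stand in a table that the authors deposited, with 1 column for each alignment file, per the file headers. The submitters' processing notes name the build mm10 and DESeq2; the aligner, the counting tool and the annotation are not given in the sources used here. Of 22533 gene lines, 5207 (23.11%) had a comma in the description and held fewer than 8 counts, so they were not used; the short lines left cells empty in 3 columns, so these columns were not checked as counts although their filled cells hold counts. Genes were kept by filterByExpr and tested with the quasi-likelihood test of edgeR 4.0.16 (R 4.3.3) on all 8 libraries, with TMM scaling, 1 mean per group and Benjamini-Hochberg adjustment over all 16477 genes, at 0.05. Each SE is the log2 fold change divided by the root of F, and 95% intervals use the fit's degrees of freedom. CPM uses TMM-scaled library sizes, and log2 CPM a prior count of 2. The 7 contrasts, the lists and the rule for named genes (all 10 members, Emcn, up to 4 called genes per pathway list and the 3 most correlated genes per called member) were chosen with earlier results of these data known. Alternatives were DESeq2 1.42.0 (size factors and Wald test), library size only, limma 3.58.1 voom, 2 other filters, the replicate number as a block, only the 4 libraries compared, each library left out, and the longest transcript as length. A podocyte marker of the planned list is not reported here. The steps were tested on simulated counts.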

Additional observations from a re-analysis of the deposited data

How the results depend on the processing

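Among the 10 genes, the count called in the averaged cell type comparison (6) was between 4 and 7 over the alternatives that kept all libraries, and between 3 and 7 with 1 library left out, lowest without replicate 2 of wild-type podocytes. Within wild type (3) it was between 3 and 4, and between 2 and 3 with 1 library left out. Within knockout (6) it was 3 with library size only, 3 with only the 4 libraries compared, and between 3 and 6 with 1 library left out; it was 3 without replicate 2 or 3 of knockout endothelium or replicate 2 of wild-type podocytes. In each genotype comparison and the interaction the count stayed 0 under each alternative. A library left out leaves an arm of 1, which is assumed to vary like the other groups.

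Over all genes, the wild-type cell type count (1481) was 922 without replicate 3 of wild-type endothelium and 769 without replicate 2 of wild-type podocytes, and the knockout count (1709) was 960, 1115 and 1079 without replicates 2 and 3 of knockout endothelium and replicate 2 of knockout podocytes. Genotype counts over all genes (1 each) were 0 to 4 in endothelium, 0 to 8 in podocytes and 1 to 14 averaged, highest with DESeq2.

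Signs of several uncalled genotype values reversed under at least 1 alternative or with 1 library left out. The genes were Sdc1 and Sdc3 in endothelium and Sdc3, Gpc2, Gpc3, Gpc4 and Gpc6 in podocytes. In endothelium Sdc1 (−0.047) was 0.31 with library size only, 0.12 with a mean of at least 5 CPM and −0.46 to 0.25 with 1 library left out, and Sdc3 (0.14) was −0.24 to 0.64. In podocytes Sdc3 (0.26) was −0.086 with limma voom and −1.77 to 1.35 with 1 library left out, Gpc2 (−0.027) was 0.081 with library size only and −0.76 to 0.44, Gpc3 (−0.20) was −0.83 to 0.23, Gpc4 (0.29) was −0.49 to 0.79 and Gpc6 (0.72) was −0.042 to 1.21. Gpc2 and Gpc5 were not tested with a mean of at least 5 CPM.

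Same-numbered libraries correlated in their deviations from the group means by 0.19 between the endothelial groups, 0.16 between the podocyte groups, 0.11 between the knockout groups and −0.13 between the wild-type groups. Each comparison has only 2 such pairs and the labels do not say what a number marks, so the numbers were not taken as pairs. With the replicate block, 7, 4 and 6 of the 10 genes were called in the averaged, wild-type and knockout cell type comparisons, where Sdc3 (1.02, edgeR adjusted p 0.038) and wild-type Gpc3 (−0.83, edgeR adjusted p 0.0356) were added, and 0 in the genotype comparisons. Over all genes the block gave 3435, 1831 and 2241 calls. With podocyte numbers crossed, a choice made after seeing the data, the counts were 6, 3 and 4 of the 10 genes.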
